A study of Homo sapiens with 15 samples.

Results

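The genes described here are the 9 rows of the read count table that carry the MHC class I molecule and its peptide supply: HLA-B, HLA-C, HLA-E, HLA-F, B2M, TAP1, TAP2, PSMB8 and PSMB9. They were taken by name from the 23368 genes of the table, and all 9 passed the filter that left 12644 genes for testing (a mean normalized read count of at least 10 in each clone). RNA was sequenced in 15 libraries, 1 for each of 3 cell clones at each of 5 doxycycline doses, 0, 1, 2.5, 5 and 25 ng/ml. Clones WT6 and WT10 carried a doxycycline-inducible, FLAG-tagged wild type RBM47, an RNA-binding protein, and clone MUT3 carried the inducible mutant RBM47-I281fs, a frameshift that truncates the protein. The paper detected no mutant protein in induced non-clonal MDA231-BrM2 cells and takes the mutant to be unstable and inactive. The labels give all clones as MDA231 breast cancer cells, whereas the methods of the study derive WT10 and MUT3 from MDA231-BrM2 cells and WT6 from CN34-BrM2 cells, both brain metastatic derivatives. Each clone grew from a single sorted cell, so a difference between clones cannot be told apart from a difference between their parental cells or their transgene insertions. The libraries held 14955172 to 44771871 reads on genes, with the WT10 library at 5 ng/ml the deepest. With 1 library for each clone and dose, every test rests on the scatter of the libraries of all 3 clones around the straight line of their own clone, and not on replicate cultures.

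MHC class I molecules show fragments of the cell's own proteins to CD8+ T cells and to natural killer cells. The immunoproteasome, whose catalytic subunits PSMB8 and PSMB9 take the places of PSMB5 and PSMB6, cuts proteins into peptides. The transporter formed by TAP1 and TAP2 carries the peptides into the endoplasmic reticulum. There they are loaded onto a heavy chain bound to beta-2-microglobulin, the product of B2M. Interferons raise the transcription of most of these genes, and tumour cells often carry less of them than normal cells do.

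The induced transgene was read first. The normalized RBM47 count (reads scaled to a common library size) in WT6 was 258, 3137, 8094, 3966 and 10425 at 0, 1, 2.5, 5 and 25 ng/ml. In WT10 it was 168, 827, 2822, 8134 and 19877, and in MUT3 it was 73.8, 92.1, 336, 949 and 22084. RBM47 rose at every step of dose in WT10 and MUT3, whereas in WT6 the library at 5 ng/ml held fewer RBM47 reads than the library at 2.5 ng/ml. Markers of the breast cancer cell (VIM, CD44, EGFR, KRT18 and KRT8) summed to 91275 to 152940 normalized counts in each library. Of the 5 markers of immune cells, which carry much class I, 4 (PTPRC, CD3E, ITGAM and LYZ) lay between 0 and 6.18 normalized counts, and CD68 lay between 2090 and 5307. The fibroblast gene DCN reached 190 to 735 in WT6, lowest untreated and highest at 25 ng/ml, while PDGFRA and LUM did not exceed 1.03 there. The part of these in the results was not tested.

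The WT6 libraries at 5 and 25 ng/ml stood apart from the rest in a way that touches every member. When the genes were divided into 5 classes of nearly equal size by transcript length, the median log2 change against the untreated library at 25 ng/ml in WT6 ran from 0.58 in the shortest class (up to 1781 bases) to -0.46 in the longest class (from 5801 bases). At 5 ng/ml it ran from 0.60 to -0.41. In WT10 at 25 ng/ml the same medians ran only from 0.06 to -0.08, and in MUT3 all 5 lay between -0.01 and 0.03. Members HLA-B, HLA-C, HLA-F, B2M, PSMB8 and PSMB9 fall in the shortest class, HLA-E and TAP1 in the second, and TAP2, with 5643 bases, in the fourth. For the members in WT6 the slopes are therefore given with and without a correction for transcript length and GC content, and also without those 2 libraries.

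Over the 5 doses in WT6, the class I heavy chains and PSMB8 and PSMB9 were higher at 5 and 25 ng/ml than at the lower doses, and TAP2 was lower. A line was fitted for each clone to the log2 normalized count against log2(dose + 1), in limma over all 12644 genes with Benjamini-Hochberg adjustment. By this test 7 of the 9 members rose with dose in WT6 (HLA-B, HLA-C, HLA-E, B2M, TAP1, PSMB8 and PSMB9), TAP2 fell, and HLA-F did not pass. Of all genes tested, 29.2% rose and 28.3% fell in WT6. In WT10, HLA-E, PSMB8 and PSMB9 rose and TAP2 fell, where 10.2% of all genes rose and 9.83% fell. In MUT3 none of the 9 members passed, and neither did any other gene (0%, with 295 genes at an unadjusted p under 0.05). RBM47 itself was among the genes tested and did not pass there. Its count in MUT3 went from 73.8 untreated to 22084 at 25 ng/ml, so this test could miss large changes in that clone. With MUT3 fitted alone on its 5 libraries, HLA-B (adjusted p = 0.0223) and TAP1 (adjusted p = 0.0113) rose, where 0.91% of all genes rose and 0.482% fell. With WT10 fitted alone, 7 members passed (HLA-B, HLA-C and B2M as well), where 13.9% rose and 14.4% fell. The median slope of the 9 members was 0.24 in WT6, 0.09 in WT10 and 0.03 in MUT3, against medians over all genes of 0.01, -0.00 and 0.00, all in log2 normalized count per unit of log2(dose + 1).

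**Figure D1:**
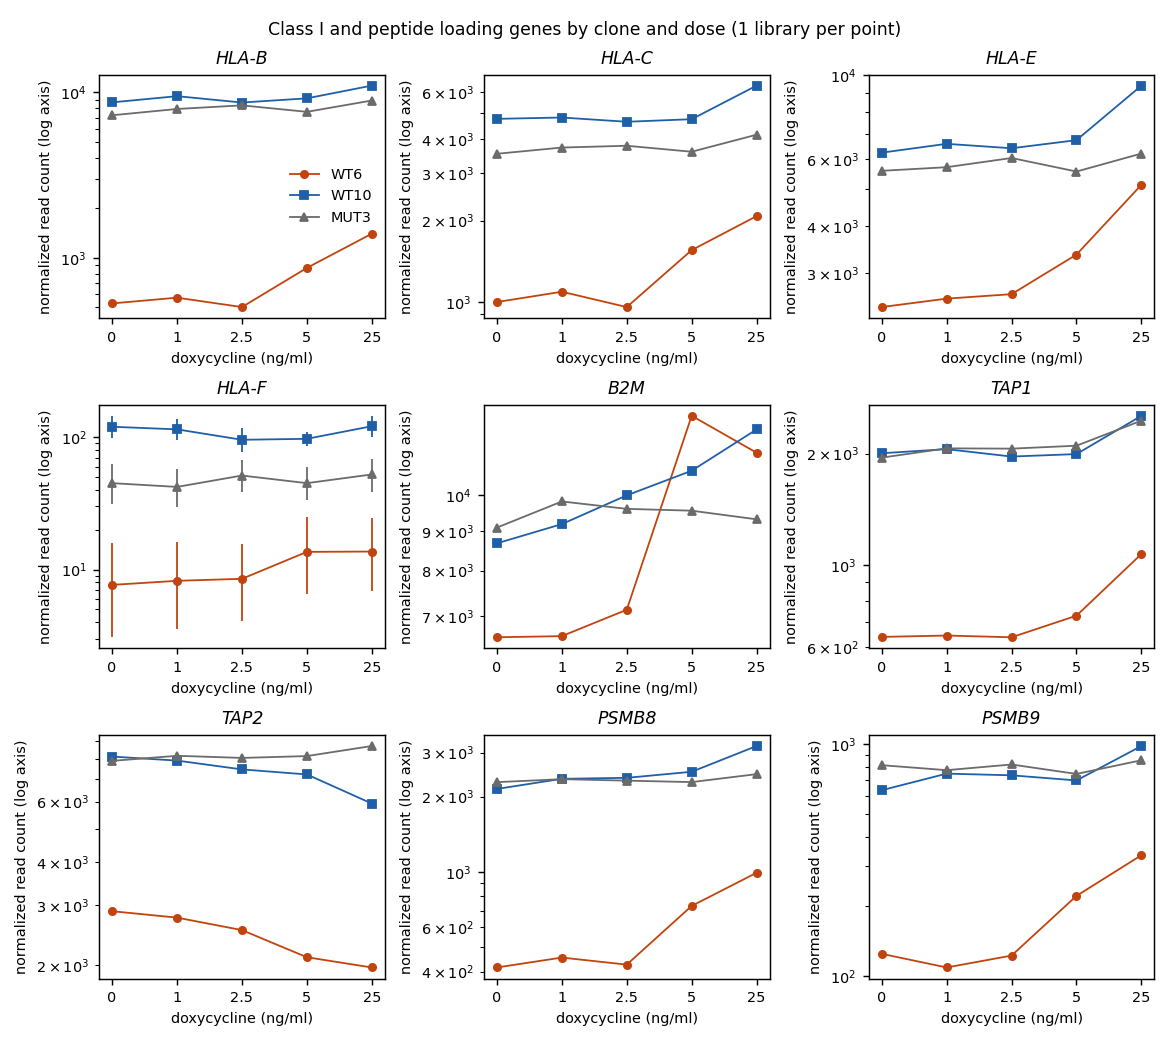
Normalized read count (log axis) of each of the 9 genes against doxycycline dose (ng/ml, evenly spaced) in WT6, WT10 and MUT3, with 1 library per point; bars on HLA-F are exact Poisson 95% intervals, which cover counting error only. WT6 lies below the other clones for every gene except B2M at 5 and 25 ng/ml, and TAP2 is the gene that falls with dose in WT6 and WT10.

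HLA-B, HLA-C and HLA-E encode heavy chains. HLA-B and HLA-C are classical chains that present peptides to T cells, and HLA-E presents mainly leader peptides of other class I chains to the receptors of natural killer cells. All lie on the short arm of chromosome 6 in hg19, the build of the deposited counts: HLA-B at chr6:31321649-31334844 and HLA-C at chr6:31236526-31239907 on the minus strand, and HLA-E at chr6:30457286-30461971 on the plus strand. Heavy-chain genes are close copies of each other and differ between people, so reads can be lost or shared among them, and the level of any single heavy chain is uncertain. The tally of reads aligned to several places was 0 in every library. The reads were counted at the default settings of HTSeq, which set such reads aside where the alignment marks them.

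HLA-B held 529, 573, 503, 868 and 1398 normalized counts in WT6 at 0, 1, 2.5, 5 and 25 ng/ml, from 483 to 1122 reads. In WT10 it held 8706, 9490, 8686, 9206 and 10994, and in MUT3 it held 7274, 7940, 8350, 7631 and 8931. The WT6 libraries at 5 and 25 ng/ml were above the other WT6 libraries, and from 0 to 25 ng/ml the count of this clone rose 2.64-fold, against 1.26-fold in WT10 and 1.23-fold in MUT3. The dose slope was 0.33 ± 0.04 (SE, 5 doses) in WT6 (adjusted p = 4.6e-05), 0.06 ± 0.04 in WT10 (adjusted p = 0.281) and 0.05 ± 0.04 in MUT3 (adjusted p = 1).

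HLA-C held 998, 1090, 957, 1555 and 2078 normalized counts in WT6, 4762, 4816, 4645, 4748 and 6323 in WT10, and 3535, 3728, 3786, 3597 and 4160 in MUT3. As for HLA-B, the untreated, 1 and 2.5 ng/ml libraries of WT6 were close together and the next doses were higher. In WT10 the library at 25 ng/ml alone stood above the others. The slope was 0.25 ± 0.04 in WT6 (adjusted p = 0.00017) and 0.09 ± 0.04 in WT10 (adjusted p = 0.123). The call in WT6 rested on the 25 ng/ml library, without which the adjusted p was 0.0544.

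HLA-E held 2443, 2571, 2642, 3361 and 5138 normalized counts in WT6, rising at every step. In WT10 it held 6247, 6591, 6416, 6740 and 9391, and in MUT3 it held 5594, 5718, 6047, 5569 and 6213. The ratio of 25 ng/ml to untreated was 2.10 in WT6, 1.5 in WT10 and 1.11 in MUT3. HLA-E had the largest rise of the heavy chains in WT10, with a slope of 0.12 ± 0.03 (adjusted p = 0.0129), but without the WT10 library at 25 ng/ml the slope there was 0.03 (adjusted p = 0.788).

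HLA-F, a nonclassical chain of low surface expression at chr6:29690552-29706305, was the scarcest member. WT6 held 7, 8, 10, 10 and 11 reads of it, or 7.67 to 13.7 normalized counts, and the interval from counting alone ran from 3.08 to 15.8 in the untreated library and from 6.84 to 24.5 at 25 ng/ml. HLA-F did not pass in WT6 (slope 0.18 ± 0.09, adjusted p = 0.0985), but without precision weights it did (slope 0.19, adjusted p = 0.00554), where 28.2% of all genes rose. With length and GC trends removed its slope was 0.05 (adjusted p = 0.63). WT10 held 120, 115, 95.7, 97.4 and 121 normalized counts, with a slope of 0.00 ± 0.04, and MUT3 held 45.0, 42.2, 51.4, 45.0 and 52.4. Every WT10 library lay above every MUT3 library, and every MUT3 library above every WT6 library.

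B2M, the invariant light chain, lies on chromosome 15 (chr15:45003556-45011049, plus strand), away from the other members. It was the most abundant member per kilobase in each clone. B2M held 6569, 6591, 7126, 12641 and 11334 normalized counts in WT6, so that its count at 5 ng/ml was 1.92 times, and at 25 ng/ml 1.73 times, the untreated count. In WT10 it rose at every step, through 8671, 9179, 9992, 10747 and 12142, while in MUT3 it held 9084, 9813, 9602, 9549 and 9309 with no order by dose. The slope was 0.21 ± 0.04 in WT6 (adjusted p = 0.00125), 0.11 ± 0.04 in WT10 (adjusted p = 0.105) and 0.00 ± 0.04 in MUT3. B2M is also the shortest member, with 943 bases, and in WT6 its change at 25 ng/ml of 0.79 on the log2 scale stood beside a median of 0.58 for the genes of its length.

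The promoters of HLA-B and B2M, members on different chromosomes, are shown with matches to 4 short motifs in capitals. The motifs are an interferon-stimulated response element (GAAANNGAA), a kappaB site (GGGNNNNNCC), the cyclic AMP response core (TGACG) and a CCAAT box (CCAAT). Each was searched on both strands. The windows run from 250 bases before to 50 after the start given by RefSeq, in GRCh38.p14, 5′ to 3′ on the strand of the gene.
HLA-B (chr6:31357130-31357429, minus strand): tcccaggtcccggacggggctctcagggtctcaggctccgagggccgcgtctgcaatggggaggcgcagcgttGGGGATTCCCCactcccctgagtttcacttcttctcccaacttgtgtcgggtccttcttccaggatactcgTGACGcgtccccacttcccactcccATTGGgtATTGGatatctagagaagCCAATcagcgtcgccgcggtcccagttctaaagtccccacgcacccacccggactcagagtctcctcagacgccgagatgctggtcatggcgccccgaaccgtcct
B2M (chr15:44711267-44711566, plus strand): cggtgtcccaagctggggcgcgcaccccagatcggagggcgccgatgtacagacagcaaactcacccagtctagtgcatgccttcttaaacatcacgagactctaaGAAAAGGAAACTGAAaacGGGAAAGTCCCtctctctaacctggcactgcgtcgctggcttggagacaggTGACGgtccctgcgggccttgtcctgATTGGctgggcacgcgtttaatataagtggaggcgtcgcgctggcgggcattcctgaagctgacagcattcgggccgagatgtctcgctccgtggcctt
In HLA-B a kappaB match began at position -177 from the start site, the TGACG core at -106 and CCAAT matches at -81, -74 and -56, some on the reverse strand. B2M held overlapping response element matches at -144 and -138 and kappaB matches, which overlap each other, at -126 and -125. Of the members, 8 of 9 matched the promoter table (all but HLA-E). These 8 have 10 windows, since 2 genes have a further start. The response element was found in 5 of the 10 windows and in 8.11% of 35116 windows of this length over all genes, the kappaB motif in 6 and in 58.7%, TGACG in 6 and in 24.6%, and CCAAT in 6 and in 34.6%. These matches are letters in a window and not measured sites.

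TAP1 and TAP2 encode the subunits of the peptide transporter, and in WT6 they moved in opposite directions. Both lie on the minus strand of chromosome 6 in hg19, TAP1 at chr6:32812986-32821593 and TAP2 at chr6:32789610-32806516, with PSMB8 between them (chr6:32808494-32812456, minus strand). PSMB9 lies on the plus strand at chr6:32811913-32827628 and overlaps TAP1 and PSMB8. Whether the libraries keep the strand is not given in the sources used here, and without it reads in the overlaps cannot be told apart. Reads counted as ambiguous were 0.53% to 0.62% of the reads on genes, outside genes or ambiguous.

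TAP1 held 640, 645, 639, 730 and 1071 normalized counts in WT6, 2004, 2055, 1963, 1993 and 2528 in WT10, and 1950, 2065, 2062, 2100 and 2453 in MUT3. In each clone the highest count was at 25 ng/ml. The ratio to untreated was 1.67 in WT6 and 1.26 in both WT10 and MUT3. The slope was 0.17 ± 0.03 in WT6 (adjusted p = 0.000604), 0.07 ± 0.03 in WT10 (adjusted p = 0.103) and 0.07 ± 0.03 in MUT3 (adjusted p = 1). Without the WT6 library at 25 ng/ml the slope in WT6 was 0.06, with an adjusted p of 0.36.

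TAP2 held 2877, 2756, 2535, 2113 and 1973 normalized counts in WT6 and 8113, 7896, 7443, 7197 and 5921 in WT10, falling at every step of dose in both clones with wild type RBM47. In MUT3 it held 7882, 8155, 8039, 8139 and 8708. The ratio of 25 ng/ml to untreated was 0.69 in WT6, 0.73 in WT10 and 1.10 in MUT3. The slope was -0.13 ± 0.02 in WT6 (adjusted p = 0.000309), -0.10 ± 0.02 in WT10 (adjusted p = 0.00671) and 0.03 ± 0.02 in MUT3 (adjusted p = 1). The call in WT10 was lost without the 25 ng/ml library of that clone (slope -0.07, adjusted p = 0.42), whereas that in WT6 held without any library. In WT10 at 25 ng/ml the log2 change of TAP2 was -0.45, against a median of -0.06 for the genes of its length. In WT6 it was -0.54, against -0.29.

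Because TAP1 and TAP2 are needed as a pair, their ratio within each library was taken, per kilobase of transcript. TAP1 to TAP2 was 0.47, 0.49, 0.53, 0.73 and 1.14 in WT6 at 0, 1, 2.5, 5 and 25 ng/ml and 0.52, 0.55, 0.55, 0.58 and 0.90 in WT10. In MUT3 it was 0.52, 0.53, 0.54, 0.54 and 0.59. The untreated ratios of the 3 clones were close, and the ratios at 25 ng/ml were furthest apart. In WT6 the genes in the length classes of TAP1 and TAP2 also moved apart, with median log2 changes at 25 ng/ml of 0.20 and -0.29. In WT10 these medians were 0.02 and -0.06. How much of the ratio goes with transcript length was not tested.

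The windows at TAP1, its divergent neighbour PSMB9 and TAP2 are shown with the same motifs in capitals.
TAP1 (chr6:32853655-32853954, minus strand): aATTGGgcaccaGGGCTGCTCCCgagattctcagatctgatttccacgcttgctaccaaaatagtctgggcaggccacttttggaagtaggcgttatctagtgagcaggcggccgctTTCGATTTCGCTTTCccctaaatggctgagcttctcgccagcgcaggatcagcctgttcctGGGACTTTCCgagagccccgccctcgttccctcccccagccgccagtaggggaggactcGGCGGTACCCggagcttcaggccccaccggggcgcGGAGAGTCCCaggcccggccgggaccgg
PSMB9 (chr6:32853942-32854241, plus strand): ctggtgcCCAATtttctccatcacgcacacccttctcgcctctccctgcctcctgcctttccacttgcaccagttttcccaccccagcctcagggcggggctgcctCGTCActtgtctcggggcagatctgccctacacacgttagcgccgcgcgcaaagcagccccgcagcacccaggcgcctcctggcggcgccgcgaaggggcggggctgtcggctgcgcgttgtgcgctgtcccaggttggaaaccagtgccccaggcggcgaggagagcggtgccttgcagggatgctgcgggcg
TAP2 (chr6:32838690-32838989, minus strand): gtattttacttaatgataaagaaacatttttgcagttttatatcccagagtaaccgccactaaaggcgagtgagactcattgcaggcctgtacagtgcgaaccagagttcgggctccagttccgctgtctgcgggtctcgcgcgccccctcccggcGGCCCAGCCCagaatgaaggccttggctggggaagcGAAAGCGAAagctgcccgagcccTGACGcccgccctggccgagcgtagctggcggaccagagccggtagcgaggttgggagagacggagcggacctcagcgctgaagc
The starts of TAP1 and PSMB9 given by RefSeq are 488 bases apart and their windows share 13 bases. TAP1 held overlapping reverse-strand matches of the response element at -133 and -127 and a kappaB match at -72. TAP2 held a response element match at -58 and TGACG at -35. The PSMB9 window held no match to the response element or the kappaB motif, only TGACG on the reverse strand at -144 and CCAAT at -243. Whether any of these matches has a part in the changes with dose was not tested. RefSeq lists another start for TAP1 and for PSMB8, and those windows are counted above but not shown.

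PSMB8 and PSMB9 encode the inducible catalytic subunits of the immunoproteasome. PSMB8 held 415, 455, 426, 732 and 993 normalized counts in WT6, 2146, 2356, 2378, 2514 and 3186 in WT10, and 2285, 2348, 2317, 2286 and 2460 in MUT3. It rose at every step in WT10, reaching 1.48 times the untreated count, against 2.39 times in WT6 and 1.08 times in MUT3. The slope was 0.29 ± 0.04 in WT6 (adjusted p = 3.4e-05), 0.12 ± 0.03 in WT10 (adjusted p = 0.0195) and 0.02 ± 0.03 in MUT3 (adjusted p = 1). In WT10 the call was lost without the untreated library (adjusted p = 0.064) or the 25 ng/ml library (adjusted p = 0.545) of that clone.

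PSMB9 held 125, 109, 123, 222 and 333 normalized counts in WT6, from 106 to 267 reads. It held 634, 747, 735, 699 and 983 in WT10 and 813, 774, 818, 745 and 854 in MUT3. The WT6 counts up to 2.5 ng/ml did not differ beyond counting error, and those at 5 and 25 ng/ml lay above all of them. The slope was 0.37 ± 0.05 in WT6 (adjusted p = 7.7e-05), the steepest of the members there, 0.12 ± 0.04 in WT10 (adjusted p = 0.047) and 0.02 ± 0.04 in MUT3. The call in WT10 was near the threshold and was lost without any of 10 libraries: the 5 of MUT3, those of WT10 at 0, 1, 2.5 and 25 ng/ml, and that of WT6 at 1 ng/ml. The adjusted p was then 0.0535 to 0.782, the highest without the WT10 library at 25 ng/ml.

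The constitutive subunits, which are encoded by short transcripts of 824 to 1044 bases, also rose in WT6 before the correction for length. PSMB5 had a slope of 0.12 there (adjusted p = 0.011), PSMB6 of 0.21 (adjusted p = 0.0029) and PSMB7, the counterpart of the inducible subunit PSMB10, of 0.18 (adjusted p = 0.001), while none of the 3 passed in WT10 or MUT3. With length and GC trends removed, PSMB5 fell in WT6 (slope -0.04, adjusted p = 0.0144), and PSMB6 (0.04, adjusted p = 0.122) and PSMB7 (0.02, adjusted p = 0.118) did not pass. Per kilobase, PSMB8 to PSMB5 was 0.09, 0.09, 0.09, 0.10 and 0.15 in WT6, 0.46, 0.52, 0.52, 0.54 and 0.56 in WT10, and 0.42, 0.45, 0.43, 0.44 and 0.47 in MUT3. PSMB9 to PSMB6 was 0.04, 0.04, 0.04, 0.04 and 0.06 in WT6, and between 0.13 and 0.17 in the other clones. Thus in WT6 both ratios were nearly level up to 5 ng/ml and were highest at 25 ng/ml. PSMB10 to PSMB7 had no such step in WT6 (0.08 to 0.10), and in WT10 it was lowest, at 0.20, at 25 ng/ml.

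**Figure D2:**
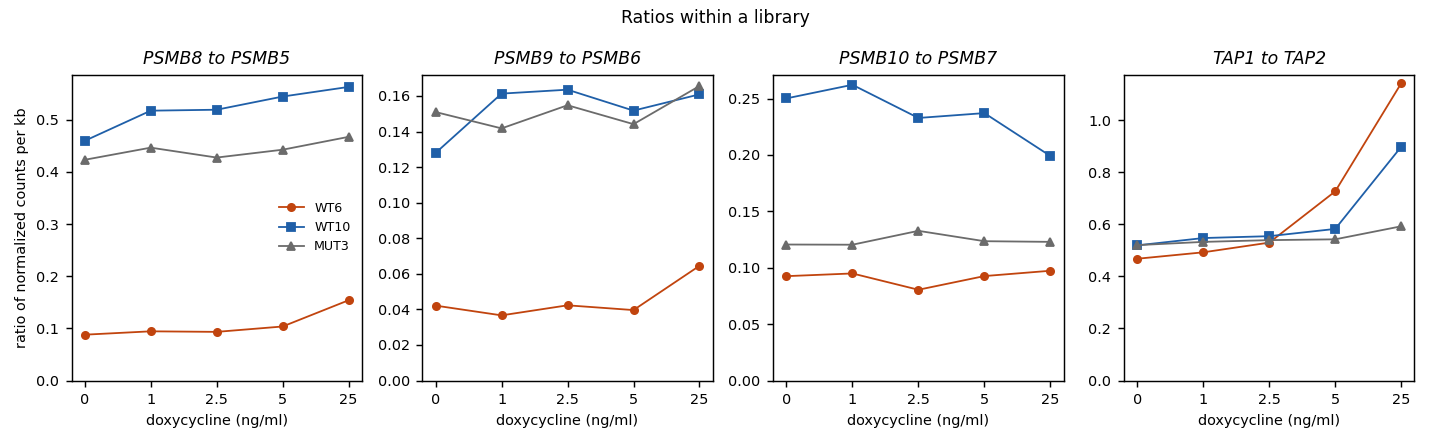
Ratios of normalized counts per kilobase of transcript within each library, against doxycycline dose (ng/ml, evenly spaced), for the inducible to the constitutive catalytic subunits and for TAP1 to TAP2, in WT6, WT10 and MUT3 with 1 library per point. TAP1 to TAP2 starts near 0.5 in all 3 clones and ends at 1.14 in WT6, 0.90 in WT10 and 0.59 in MUT3, and the PSMB8 and PSMB9 ratios of WT6 lie below those of the other clones at every dose. The ratios are not corrected for the shift with transcript length in WT6.

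Since short transcripts rose as a class in WT6, the fit was repeated on values from which the trend of each library with transcript length and GC content had been removed, for the 12113 genes with an annotated transcript. The same 8 members passed in WT6, in the same directions, where 27.1% of all genes then rose and 31.5% fell. Their slopes were smaller: 0.19 for HLA-B, 0.11 for HLA-C, 0.20 for HLA-E, 0.06 for B2M, 0.13 for TAP1, -0.05 for TAP2, 0.14 for PSMB8 and 0.21 for PSMB9. In proportion the slope of B2M shrank the most, from 0.21, and that of HLA-E the least, from 0.24. In WT10, HLA-C (slope 0.08, adjusted p = 0.00169), B2M (slope 0.04, adjusted p = 0.0341) and TAP1 (slope 0.08, adjusted p = 0.00141) passed as well, so that 6 members rose and TAP2 fell, beside 15.5% of genes rising and 20.6% falling.

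**Figure D3:**
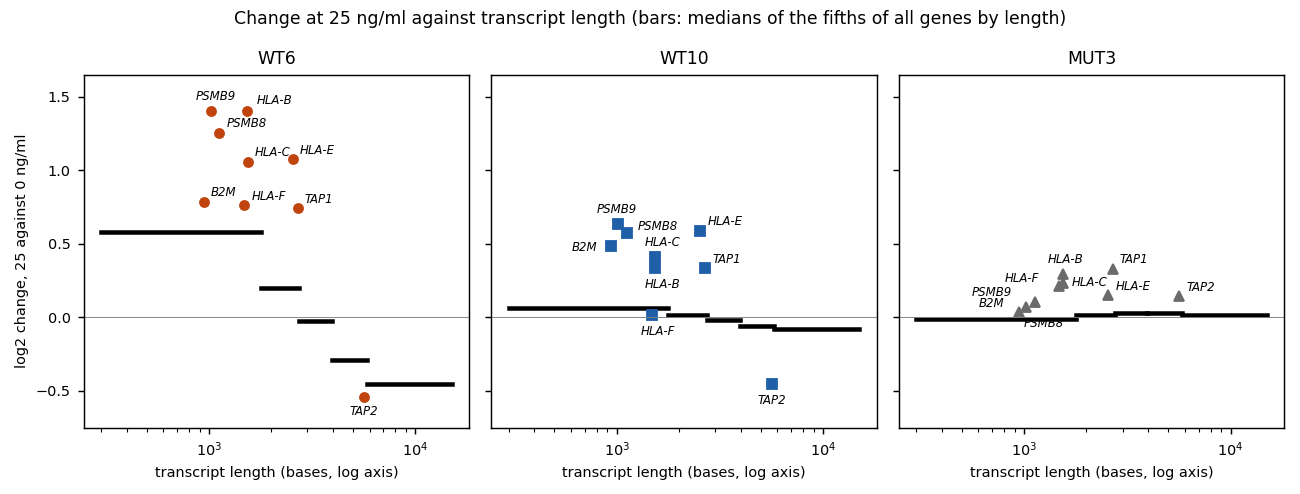
Log2 change of each member between 25 and 0 ng/ml doxycycline against the length of its transcript (bases, log axis) in WT6, WT10 and MUT3; black bars are the medians of all genes in each of 5 classes by length, with the outer bars shortened. In WT6 the bars descend from 0.58 to -0.46 and the members other than TAP2 lie above their own bar, while in WT10 the bars run from 0.06 to -0.08 only.

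Leaving out the WT6 libraries at 5 and 25 ng/ml, an alternative chosen after the data were seen, changed both clones with wild type RBM47. In WT6 no member passed over the 3 remaining doses, where 1.03% of all genes rose and 0.411% fell. The slope of TAP2 there was still -0.10 (adjusted p = 0.289), against -0.13 over 5 doses, and the slopes of the other members lay between -0.03 and 0.08. In WT10, where the counts were the same but the estimate of the scatter was smaller, 8 of 9 members passed: HLA-B (slope 0.07, adjusted p = 0.013), HLA-C (adjusted p = 0.00507), HLA-E (adjusted p = 0.000167), B2M (slope 0.11, adjusted p = 2.8e-05), TAP1 (adjusted p = 0.0123), PSMB8 (adjusted p = 5.4e-05) and PSMB9 (adjusted p = 0.00183) rose and TAP2 (adjusted p = 5.9e-05) fell. In that fit 18.7% of all genes rose and 20.2% fell in WT10.

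The wild type and the mutant were compared in WT10 and MUT3, which the methods derive from the same line, by the difference between their slopes. At 1, 2.5 and 5 ng/ml MUT3 held fewer normalized RBM47 counts (92.1, 336 and 949) than WT10 (827, 2822 and 8134). TAP2 differed, by -0.13 ± 0.03 (95% interval -0.19 to -0.06, adjusted p = 0.0325), and was the only member to do so, where 2.97% of all genes had a lower and 2.66% a higher slope in WT10. For TAP1 the difference was 0.00, with an interval of -0.08 to 0.09, and for HLA-B it was 0.01, with an interval of -0.11 to 0.13. The differences of HLA-E (0.09), B2M (0.11), PSMB8 (0.10) and PSMB9 (0.10) were of the size of the slopes in WT10 but had adjusted p of 0.213, 0.344, 0.222 and 0.296. Without the WT6 libraries at 5 and 25 ng/ml these passed too, with adjusted p of 0.0228, 0.00151, 0.00712 and 0.0494, beside 10.7% of all genes higher and 13.5% lower. With length and GC trends removed, TAP2 (-0.10, adjusted p = 0.0033), HLA-E (0.11, adjusted p = 0.0092) and PSMB8 (0.08, adjusted p = 0.0224) passed. B2M (0.02, adjusted p = 0.447) and PSMB9 (0.07, adjusted p = 0.167) did not pass in that fit. The share of all genes past the threshold in that fit is not given here, so these calls cannot be set beside it. The difference of TAP2 was lost without any of 8 libraries, the 5 of MUT3 and those of WT10 at 1, 2.5 and 25 ng/ml, with adjusted p of 0.0521 to 0.547. Without the WT6 library at 5 ng/ml alone, the difference of B2M passed (adjusted p = 0.0159). With dose as a block shared by the clones, an alternative chosen after the data were seen, TAP2 was again the only member to pass (adjusted p = 0.031), where 4.4% of all genes had a lower and 3.61% a higher slope in WT10.

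The clones with wild type RBM47 were compared in the same way. The slope was steeper in WT6 than in WT10 for HLA-B (difference 0.26 ± 0.06, adjusted p = 0.0194), PSMB8 (0.18 ± 0.05, adjusted p = 0.0352) and PSMB9 (0.25 ± 0.07, adjusted p = 0.0289), where 7.28% of all genes had a steeper and 7.09% a lower slope in WT6. The other 6 members did not pass, and the slope of TAP2 differed by -0.03, with an interval of -0.10 to 0.04. With the length and GC trends removed, the differences of PSMB8 (0.04, adjusted p = 0.301) and PSMB9 (0.11, adjusted p = 0.127) no longer passed, and HLA-B did (0.14, adjusted p = 0.025). Without the WT6 library at 25 ng/ml the adjusted p was 0.234 for HLA-B, 0.202 for PSMB8 and 0.248 for PSMB9, and without the untreated WT10 library it was 0.101, 0.146 and 0.119. PSMB9 was also lost without the WT6 or the WT10 library at 1 ng/ml, and PSMB8 without those, the WT10 libraries at 5 and 25 ng/ml or the MUT3 libraries at 0, 1 and 2.5 ng/ml. HLA-C and HLA-E passed without the WT6 library at 0, 2.5 or 5 ng/ml or the WT10 library at 25 ng/ml, with adjusted p of 0.0172 to 0.047, and TAP1 passed without the WT6 library at 0 or the WT10 library at 25 ng/ml. With dose as a block, HLA-C (adjusted p = 0.0446) and HLA-E (adjusted p = 0.0448) passed besides HLA-B, PSMB8 and PSMB9, where 8.98% of all genes had a steeper and 10.5% a lower slope in WT6.

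**Figure D4:**
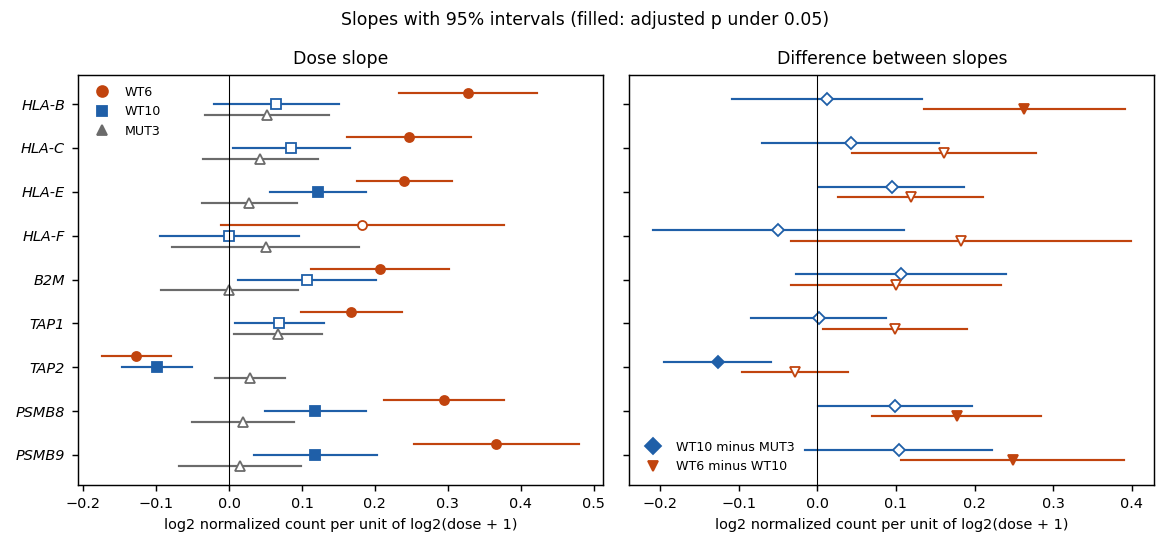
Left, dose slope of each member in log2 normalized count per unit of log2(dose + 1) in WT6, WT10 and MUT3, and right, the differences between slopes, each with its 95% interval from limma; filled symbols passed an adjusted p of 0.05. In WT6 and WT10 TAP2 lies below 0, at -0.13 and -0.10, and in MUT3 no symbol is filled.

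For every member but B2M, the untreated levels of WT6 and WT10 differed by more than the count in WT6 moved between 0 and 25 ng/ml. By the intercepts of the fit, all 9 members were lower in untreated WT6 than in untreated WT10, where 28.8% of all genes were lower. The difference on the log2 scale was -4.25 for HLA-B (adjusted p = 1.6e-11), -3.69 for HLA-F (adjusted p = 1.9e-08), -2.68 for PSMB9 (adjusted p = 1.2e-08), -2.49 for PSMB8 (adjusted p = 6.9e-10) and -2.30 for HLA-C (adjusted p = 3.3e-09). TAP1 (-1.72), TAP2 (-1.53) and HLA-E (-1.41) followed. B2M was lower by the least, -0.45 (adjusted p = 0.0247), beside a change of 0.79 with dose in WT6, and did not pass without the untreated or 1 ng/ml library of WT6 or the untreated or 25 ng/ml library of WT10 (adjusted p 0.0549 to 0.0872). These tests compare 1 clone with 1 clone, so the spread among clones of a line is not in them. The methods derive both clones from different lines, and heavy-chain genes differ between people. For the heavy chains, a loss of reads in either line therefore cannot be told apart from a lower level there.

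Per kilobase of transcript, the median over the 5 libraries of WT10 was 10596 normalized counts for B2M, 5994 for HLA-B, 3088 for HLA-C, 2587 for HLA-E, 2115 for PSMB8, 1319 for TAP2, 746 for TAP1, 723 for PSMB9 and 77.5 for HLA-F. The ranges over doses of HLA-C and HLA-E, of HLA-E and PSMB8, and of TAP1 and PSMB9 overlapped, and those of the other neighbours did not. MUT3 had the same order apart from PSMB9 (799) and TAP1 (769), which overlapped there too. In WT6 the order was B2M (7557), HLA-E (1037), HLA-C (707), TAP2 (449), PSMB8 (405), HLA-B (373), TAP1 (240), PSMB9 (123) and HLA-F (5.76). There the ranges of HLA-E and HLA-C overlapped, as did those of each neighbouring pair from TAP2 to PSMB9. At 25 ng/ml alone HLA-B (910) lay above PSMB8 (883). HLA-B lay above TAP2 at 5 ng/ml (565 against 374) and at 25 ng/ml (910 against 350), and above TAP1 at every dose. The heavy chains HLA-B, HLA-C, HLA-E and HLA-F together amounted to 0.22 to 0.36 of the B2M level per kilobase in WT6, against 1.03 to 1.23 in WT10 and 0.94 to 1.11 in MUT3. HLA-E made up 45.5% to 52.1% of these heavy-chain reads per kilobase in WT6 and 21.6% to 24.5% in the other clones. Reads lost or shared among the heavy chains would change these values, and the part of this was not tested.

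Between untreated WT10 and MUT3, HLA-F alone differed among the members, higher in WT10 by 1.3 ± 0.20 on the log2 scale (adjusted p = 0.000186), where 14.3% of all genes were higher in WT10. For TAP1 the difference was -0.02, with an interval of -0.24 to 0.21, and for HLA-E it was 0.07, with an interval of -0.16 to 0.31. HLA-C was higher in WT10 in every library, from 4645 to 6323 against 3535 to 4160, with a difference of 0.33 and an adjusted p of 0.0792. It passed without the WT6 library at 2.5 or 5 ng/ml or the WT10 library at 25 ng/ml (adjusted p 0.0152 to 0.0347).

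The other genes of the pathway, in 7 lists, were read in the same fit, and their counts stand beside the 29.2% of all genes that rose and 28.3% that fell in WT6 and the 10.2% and 9.83% in WT10. Of 7 partners in loading, TAPBP (tapasin, which bridges the transporter and the heavy chain; slope 0.16, adjusted p = 0.000474) and TAPBPL (its homologue; slope 0.22, adjusted p = 0.0012) rose in WT6. The chaperone CANX (slope -0.13, adjusted p = 0.0012) and the peptide-trimming enzyme ERAP1 (slope -0.16, adjusted p = 0.00037) fell there. In WT10 only the trimming enzyme ERAP2 passed (slope 0.11, adjusted p = 0.049), and in MUT3 no gene did. With length and GC trends removed TAPBP kept a slope of 0.16 in WT6, and TAPBPL no longer passed (0.10, adjusted p = 0.0843). ERAP2 (0.16, adjusted p = 0.024) then rose in WT6, and CALR (-0.07, adjusted p = 0.0181) fell. TAPBP held 2820 to 4574 normalized counts in WT6 and 8922 to 10726 in WT10, a gap in the same direction as that of the members. Of the 4 other proteasome genes of antigen processing, PSMB10 (0.20, adjusted p = 0.0023) and the activator subunits PSME1 (0.18, adjusted p = 0.0024) and PSME2 (0.23, adjusted p = 0.001) rose in WT6, and none passed in WT10. With the trends removed only PSME2 still passed in WT6 (0.06, adjusted p = 0.00784).

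Of 11 regulators of class I transcription, 3 rose and 3 fell in WT6, with a median slope of 0.02, shares near those of all genes, and NFYC alone passed in WT10 (slope -0.12, adjusted p = 0.0022), where it fell. Those that rose in WT6 were RFXANK (0.20) and NFYB (0.11), subunits of the factors that bind the class I promoter, and IRF2 (0.17). NFYA (-0.17), NFYC (-0.06) and NFKB1 (-0.09) fell. With the trends removed 5 rose and 3 fell, beside 27.1% and 31.5% of all genes, and NFKB1 no longer passed (-0.05, adjusted p = 0.088). RFX5 (0.06, adjusted p = 0.00342) and IRF1 (0.08, adjusted p = 0.017) then rose, and RELA (-0.03, adjusted p = 0.0294) fell. NLRC5, the transactivator of class I genes, held 12.3 to 31.9 normalized counts in the 5 libraries of WT6, 456 to 617 in WT10 and 406 to 445 in MUT3. Its untreated level was lower in WT6 than in WT10 by a log2 difference of -4.48 (adjusted p = 1.5e-09), and it passed the dose test in no clone. The untreated level of IRF1, an interferon-induced activator, was also lower in WT6 (-1.12, adjusted p = 1.7e-07).

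Of 7 interferon receptors and kinases, the receptor chain IFNGR2 had the steepest rise, with a slope of 0.37 in WT6 (adjusted p = 7.6e-06) and 0.31 in WT10 (adjusted p = 0.00021), against -0.02 in MUT3. The slope of IFNGR2 differed between WT10 and MUT3 by 0.34 (adjusted p = 0.0085). Its normalized count ran from 1181 to 3668 over the WT6 libraries, from 617 to 1628 over those of WT10 and from 725 to 825 over those of MUT3. IFNGR1, the other chain of the interferon gamma receptor, rose in WT6 (0.12, adjusted p = 0.001) and WT10 (0.11, adjusted p = 0.009). IFNAR1, of the type I receptor, rose in WT10 (0.10, adjusted p = 0.014), IFNAR2 (-0.12) and JAK2 (-0.24) fell in WT6, and TYK2 fell in WT6 (-0.19) and in WT10 (-0.10). With the trends removed the slope of IFNGR2 was 0.26 in WT6 and 0.29 in WT10, whereas IFNGR1 passed in neither clone (adjusted p = 0.121 and 0.169) and JAK2 no longer passed in WT6 (adjusted p = 0.129). IFNAR1 (0.09, adjusted p = 0.000245) and JAK1 (0.09, adjusted p = 0.000105) then rose in WT6.

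Of 26 interferon-stimulated genes, 23 were tested. In WT6, 10 rose and 1 fell, beside 29.2% and 28.3% of all genes, and in WT10, 8 rose and none fell, beside 10.2% and 9.83%. No gene of any kind passed in MUT3. With the trends removed, 9 rose and none fell in WT6 and 15 rose and none fell in WT10, where 15.5% of all genes rose. OAS1, a sensor of double-stranded RNA, rose in WT6 (0.45, adjusted p = 0.0034) and WT10 (0.39, adjusted p = 0.00056), and its slope differed between WT10 and MUT3 by 0.40 (adjusted p = 0.025). In WT6 OAS1 rests on few reads, 4 untreated and 18 at 25 ng/ml. IFI44 likewise rose in WT6 (0.19) and WT10 (0.29), with a difference between WT10 and MUT3 of 0.24 (adjusted p = 0.017), but with the trends removed it did not pass in WT6 (0.09, adjusted p = 0.139). IRF9, a subunit of the factor that binds the response element, rose in WT6 (0.40, adjusted p = 2.5e-05) and had a slope of 0.11 in WT10 (adjusted p = 0.09). The untreated level of 15 of the 23 was lower in WT6 than in WT10, beside 28.8% of all genes, with a median difference of -0.79 on the log2 scale, against a median of -2.30 for the 9 members.

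Of 8 other class I-like genes, 7 were tested. The class I pseudogenes HLA-H (0.24, adjusted p = 0.0011), HLA-J (0.29, adjusted p = 0.015) and HLA-L (0.37, adjusted p = 0.0041) rose in WT6, and reads of the heavy-chain genes can be assigned to them. In WT6, HLA-L held only 6 reads untreated and 21 at 25 ng/ml, and HLA-J 12 and 25. With the trends removed HLA-H (adjusted p = 0.297) and HLA-J (adjusted p = 0.358) no longer passed. MR1 (0.20, adjusted p = 0.013) then rose in WT6, and MICA (-0.10, adjusted p = 0.000448) fell. MICB, a stress ligand of the receptor NKG2D, fell in WT6 (-0.15, adjusted p = 0.00023) and WT10 (-0.08, adjusted p = 0.028). HFE, which regulates iron uptake, rose in WT10 (0.18, adjusted p = 0.0061).

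**Figure D5:**
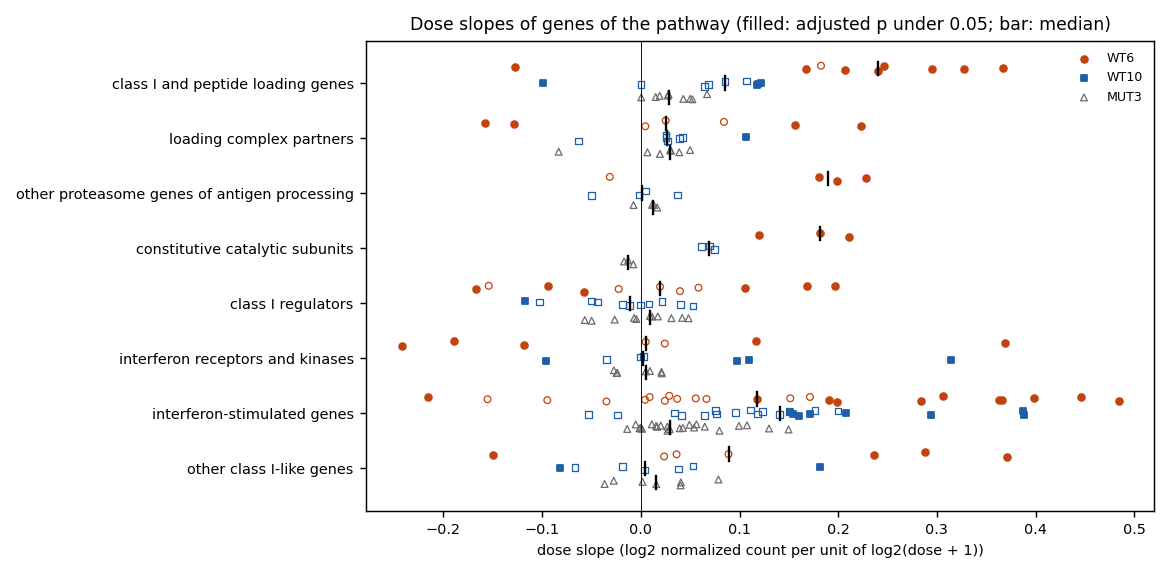
Dose slope (log2 normalized count per unit of log2(dose + 1)) of each tested gene of the members and of 7 lists of the pathway, in WT6, WT10 and MUT3; filled symbols passed an adjusted p of 0.05 and black bars are medians. The members have a median of 0.24 in WT6 and 0.09 in WT10, the interferon-stimulated genes of 0.12 and 0.14, and no symbol is filled in MUT3.

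The genes whose pattern was most like that of the members were found by Pearson's r over the 15 libraries after centring each clone on its own mean. For the mean of HLA-B, HLA-C, HLA-E, HLA-F and B2M they were RHOC, PGLS, TNNT1, PPP1R11, YIF1A and SURF1, with r from 0.986 to 0.990. Their transcripts have 1008 to 1621 bases, all in the shortest length class, and the libraries they share include the WT6 libraries at 5 and 25 ng/ml. For the mean of TAP1, TAP2, PSMB8 and PSMB9 they were STAP2, PPP1R11, OPTN, IRF9, MRPL49 and JUNB, with r from 0.974 to 0.980. TAP2 itself had an r of -0.80 with that mean, to which it contributes.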

How the data were processed

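RNA was extracted with a spin kit, libraries were made from polyadenylated RNA, and 75-base paired reads were obtained. The authors aligned them with STAR to hg19, counted genes with HTSeq 0.5.4, both at default settings, and deposited counts scaled by DESeq size factors, a signal per gene and library with no replicate pooled. The annotation and library strand are not given in the sources used here. Per the labels, each of the 15 libraries is 1 clone at 1 dose. Reads outside annotated genes were 56.5% to 59.6%, and tally rows were left out. All deposited values were whole multiples (within 0.001) of 1 read (100%), so whole reads were recovered for an edgeR alternative. The count 1 read stands for was 0.397 to 1.36, and the limit of 3 reads was 1.19 to 4.09 normalized counts.

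Log2(normalized count + 1) was fitted in limma 3.58.1 (R 4.3.3) with vooma weights, each clone having its own intercept and its own slope against log2(dose + 1) (6 coefficients, 9 residual degrees of freedom), for genes with a mean of at least 10 in each clone, with Benjamini-Hochberg adjustment at 0.05. Fold changes on this scale understate those of low genes. The fit was tested on simulated data. Alternatives were edgeR 4.0.16 with TMM, TMM scaling, a pseudocount of 5, no filter, no weights, RBM47 or dose in ng/ml as the correlate, each clone alone, no 25 ng/ml libraries, removal of length and GC trends (natural splines with 4 degrees of freedom) and each library left out, and, added after the data were seen, no WT6 libraries at 5 and 25 ng/ml and dose as a block shared by the clones. Transcript lengths, positions and GC came from GENCODE 44 lifted to GRCh37 (91.9% of symbols matched), and promoters from RefSeq, GRCh38.p14. Intervals on counts are exact Poisson intervals and, like the limit, cover counting error only. All 9 members are named. Genes of the lists are named where they passed in WT6 or WT10 or define the list, and the 6 genes most like each group by r. The members and lists were chosen with earlier results of these data known. Of these lists, 1 regulator and 1 immune marker are not reported here.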

Additional observations from a re-analysis of the deposited data

Results flagged for a closer look

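The dose response of 4 members differed between clones by a test of the difference itself. The slope of TAP2 was lower in WT10 than in MUT3 by a difference of -0.13 (adjusted p = 0.0325, limma), where 2.97% of all genes had a lower and 2.66% a higher slope in WT10. The call of TAP2 was lost without any single library of MUT3 or without the WT10 library at 1, 2.5 or 25 ng/ml. The slope was higher in WT6 than in WT10 by 0.26 for HLA-B (adjusted p = 0.0194), by 0.18 for PSMB8 (adjusted p = 0.0352) and by 0.25 for PSMB9 (adjusted p = 0.0289). Of all genes, 7.28% had a steeper and 7.09% a lower slope in WT6. With length and GC trends removed HLA-B passed (adjusted p = 0.025), but PSMB8 (adjusted p = 0.301) and PSMB9 (adjusted p = 0.127) did not. Each of these calls was lost without the WT6 library at 25 ng/ml or the untreated WT10 library. At a given dose the clones did not carry equal RBM47: at 1 ng/ml the normalized RBM47 count was 3137 in WT6, 827 in WT10 and 92.1 in MUT3. No group held the 4 to 10 replicate libraries that a test for outlying samples needs.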

How the results depend on the processing

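The number of members past the threshold (of 9) was 8 for the slope in WT6, 4 in WT10, 0 in MUT3, 1 for WT10 minus MUT3, 3 for WT6 minus WT10, and 1 and 9 for the untreated levels WT10 minus MUT3 and WT6 minus WT10. In the same order, 57.5%, 20%, 0%, 5.62%, 14.4%, 28.2% and 59.6% of all genes passed in either direction. edgeR, TMM scaling, a pseudocount of 5 and no filter moved none of these by more than 1.5 times. With the RBM47 count in place of dose, the 4 slope counts above 0 became 0 in WT6, 0 in WT10, 0 and 0. Without the 25 ng/ml libraries they became 5, 0, 0 and 0. Without precision weights the count was 2 in WT10 and 0 and 1 for the slope differences, and with dose in ng/ml the differences gave 0 and 1 and the level of WT10 minus MUT3 gave 2. Each clone fitted alone gave 7 in WT10, where 13.9% of all genes rose and 14.4% fell. That fit gave 2 in MUT3 (HLA-B and TAP1), where 0.91% of all genes rose and 0.482% fell. With dose as a block shared by the clones, an added alternative, WT6 minus WT10 gave 5, where 8.98% of all genes had a steeper and 10.5% a lower slope in WT6. With length and GC trends removed the counts were 7 in WT10, 3 and 1 for the slope differences and 3 for the level of WT10 minus MUT3. In WT10, 15.5% of all genes then rose and 20.6% fell. Without the WT6 libraries at 5 and 25 ng/ml the counts were 0 in WT6, 8 in WT10, 5 and 0 for the differences and 4 for that level. In that fit 1.03% of all genes rose and 0.411% fell in WT6, and 18.7% rose and 20.2% fell in WT10. For WT10 minus MUT3, 10.7% were higher and 13.5% lower. The slopes in WT6 then changed sign for HLA-B (-0.034), HLA-C (-0.027), TAP1 (-0.0013) and PSMB9 (-0.022), and the differences WT6 minus WT10 for HLA-B (-0.10), PSMB8 (-0.094) and PSMB9 (-0.14). The causes were not tested. Leaving out each library gave 6 to 8 in WT6, 0 to 7 in WT10 (0 without its library at 25 ng/ml, 7 without that of WT6 at 5 ng/ml, when HLA-C, B2M and TAP1 also passed), 0 in MUT3, 0 to 2 and 0 to 6 for the differences (6 without untreated WT6), and 1 to 2 and 8 to 9 for the levels. Where no share of all genes stands beside a count for an alternative, the count cannot be set against all genes. A loss or gain of calls over all genes then cannot be told apart from a change particular to the members. No paired analysis by replicate number was possible because each clone and dose has 1 library. HLA-F in WT6 rests on 7 to 11 reads, and it passed there without precision weights (slope 0.19, adjusted p = 0.00554).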
